A study of Canis lupus with 20 samples.

Results

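Fatty acid uptake and beta oxidation were followed through 39 named genes in canine left atrium and left ventricle. A gene was taken up when a probe set of the array was annotated to its symbol alone, and it was represented by the probe set with the highest mean over all 20 arrays. By this rule 37 of the 39 genes were present, out of 15115 genes with such a probe set on the array. ACACB and ACOT2 had none and were left out. All 37 passed the filter on dim probe sets, which kept 11423 genes and 30047 probe sets for testing. The genes are a list of names from the pathway, put together with earlier results of these data known.

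The study compared hearts of dogs with and without removal of a kidney. Normal dogs were assigned to right-sided uninephrectomy (UNX) or to a sham operation, 6 to each, and hearts were collected 12 weeks later. The 4 groups were UNX left atrium, sham left atrium, UNX left ventricle and sham left ventricle, with 5 Affymetrix canine arrays each. The labels name no other treatment or genotype for any group, and age, sex and breed are not given in the sources used here. The labels number the arrays within each group but do not tie an array to a dog, so p-values measure the spread between these samples.

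In the heart, long-chain fatty acids cross the cell membrane with the help of CD36 and the SLC27A transport proteins, are carried in the cytosol by FABP3 and are activated to acyl-CoA by the ACSL synthetases. The carnitine shuttle, CPT1 on the outer and CPT2 on the inner mitochondrial membrane, brings the acyl group into the mitochondrion, and malonyl-CoA inhibits CPT1. Each turn of beta oxidation then runs through an acyl-CoA dehydrogenase, which passes electrons to the electron transfer flavoprotein, and through a hydratase, a hydroxyacyl-CoA dehydrogenase and a thiolase. This pathway is a main source of ATP in the adult heart, and the nuclear receptor PPARA and its coactivator PPARGC1A control many of its genes.

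Signals are the deposited log2 values, so a difference of 1 is a 2-fold change and a negative chamber difference means lower signal in atrium, and probe sets of different genes are not set against each other. The arrays had medians of 2.33 to 2.39 and upper quartiles of 5.10 to 5.53. The number of arrays limited the precision: a difference between groups had a median standard error of 0.11 and a median 95% confidence half-width of 0.22. A probe set was called when limma's Benjamini-Hochberg adjusted p was under 0.05 over all 30047 probe sets. The chamber labels fitted their markers. MYL2, the ventricular myosin light chain, averaged 4.72 ± 1.59 in UNX atria and 14.55 ± 0.09 in UNX ventricles. In sham dogs it averaged 3.81 ± 1.05 in atria and 14.66 ± 0.28 in ventricles (SD, n = 5 each).

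The chambers differed in fatty acid genes in both sets of dogs, and nearly all called differences ran the same way, with lower signal in the atrium. In UNX dogs 20 of the 37 genes were called, 18 lower and 2 higher in atrium than in ventricle, where 27.3% of all tested probe sets were called (12.5% lower, 14.7% higher). In sham dogs 20 were called, again 18 lower and 2 higher, against 20.8% of all tested probe sets (9.62% lower, 11.2% higher). Called genes included the fatty acid translocase CD36, the binding protein FABP3, the synthetase ACSL1, the malonyl-CoA decarboxylase MLYCD, the enoyl-CoA isomerase ECI1 and all 3 electron transfer genes. The median difference over the 37 genes was -0.23 in UNX dogs and -0.25 in sham dogs, beside -0.02 in UNX and -0.01 in sham dogs over all tested probe sets. In whole tissue, fewer cells of a type and less RNA per cell cannot be told apart.

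**Figure D1:**
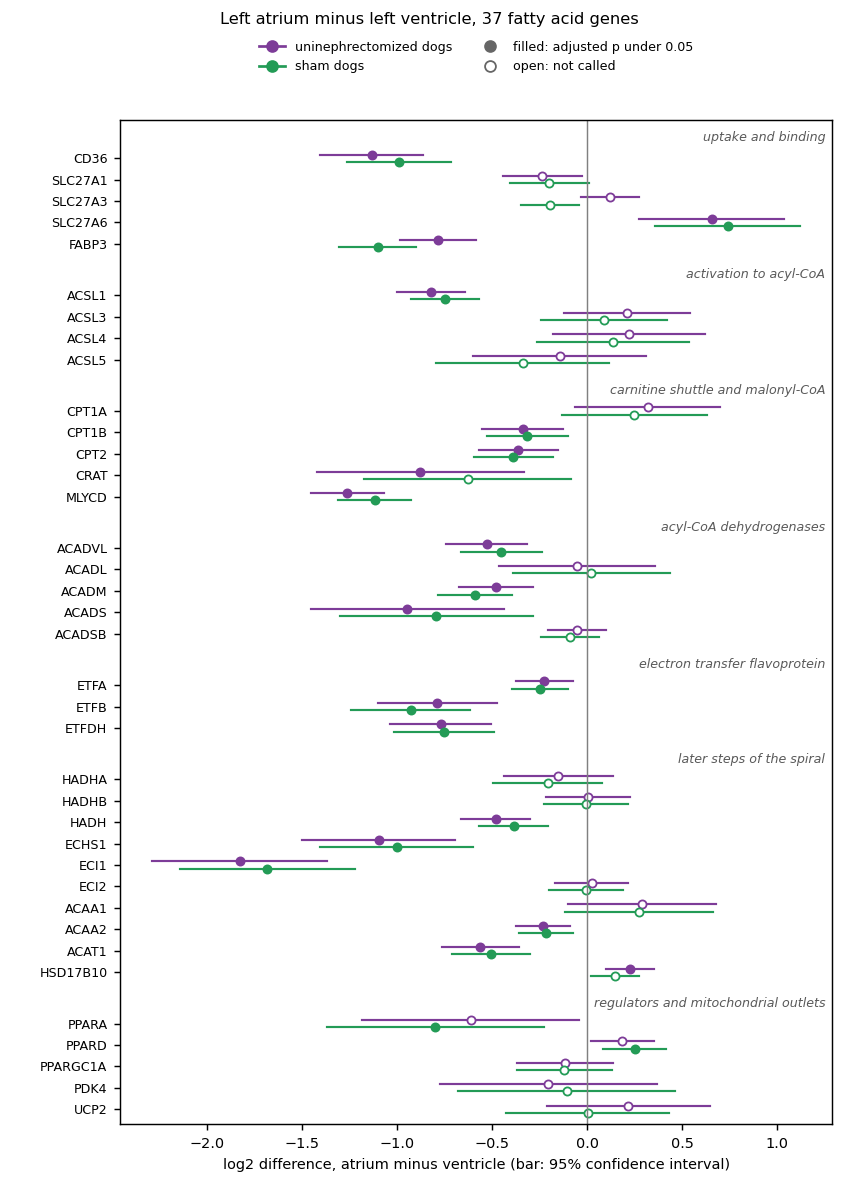
Log2 difference, left atrium minus left ventricle, of the 37 fatty acid genes in UNX and in sham dogs (x axis), with genes grouped by role down the page. Points are limma estimates from 5 arrays per group, bars are 95% confidence intervals and filled points are called at adjusted p under 0.05. Most filled points lie left of 0, with ECI1 farthest at -1.83 in UNX and -1.68 in sham dogs, and SLC27A6 lies right of 0 in both.

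Complete separation of the arrays was also frequent among these genes. The 5 atrial arrays all lay below the 5 ventricular arrays for 16 genes in UNX dogs, where 9.57% of all probe sets did, and for 13 genes in sham dogs, where 6.67% did. They all lay above for 1 gene in each, HSD17B10 in UNX and SLC27A6 in sham dogs, beside 11.4% of all probe sets in UNX and 7.59% in sham dogs. The chamber contrasts of UNX and sham dogs compare different arrays, but the spread of each probe set was estimated once from all 20 arrays. The calls in UNX and sham dogs are thus not fully independent. Both contrasts called 18 of the 37 genes in the same direction, 17 lower and SLC27A6 higher in atrium. Among all 30047 tested probe sets, both called 5077 in the same direction, 2228 lower and 2849 higher. CRAT and HSD17B10 passed the threshold in UNX dogs alone, and PPARA and PPARD in sham dogs alone. No gene's chamber difference was called as differing between the operations. The sign was shared by 33 of 37 genes (89.2%), against 80.7% of all tested probe sets.

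The genes of uptake and binding come first in the pathway. CD36, the membrane fatty acid translocase, had signals of 10.83, 11.11, 10.88, 10.97 and 10.79 in UNX atria, against 12.17, 11.97, 11.79, 12.13 and 12.20 in UNX ventricles. In sham atria they were 11.19, 10.93, 11.30, 11.52 and 10.81, against 12.03, 12.04, 11.88, 12.32 and 12.45 in sham ventricles. Every atrial array lay below every ventricular array in both sets of dogs. The difference was -1.14 ± 0.13 (SE) in UNX dogs, 2.20-fold lower in atrium (adjusted p = 3.6e-06). In sham dogs it was -0.99 ± 0.13, 1.99-fold lower (adjusted p = 2.24e-05). FABP3, the cytosolic fatty acid binding protein of muscle, read 12.74, 12.67, 12.91, 12.77 and 12.55 in UNX atria, against 13.43, 13.65, 13.44, 13.59 and 13.46 in UNX ventricles. The sham arrays gave 12.55, 12.36, 12.51, 11.92 and 12.27 in atrium and 13.47, 13.42, 13.42, 13.42 and 13.39 in ventricle. The sham ventricles were tightly grouped, the sham atria were the lowest of the 4 groups, and no atrial array reached a ventricular one. FABP3 was 1.73-fold lower in UNX atrium (-0.79 ± 0.10, adjusted p = 7.05e-06) and 2.15-fold lower in sham atrium (-1.10 ± 0.10, adjusted p = 1.39e-07). Its other probe set was also called lower in both sets of dogs.

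Among the SLC27A transport proteins, SLC27A6, which is expressed in heart, was the one gene called higher in atrium in both sets of dogs. Its probe set was dim. The UNX arrays were at 3.25, 3.71, 2.70, 3.35 and 3.27 in atrium and 2.38, 2.50, 2.73, 2.55 and 2.84 in ventricle. The sham arrays were at 2.93, 3.15, 3.78, 3.71 and 3.11 in atrium and 2.80, 2.32, 2.84, 2.65 and 2.39 in ventricle. UNX atrial array 3 fell among the ventricular arrays, while the sham chambers did not overlap. The difference was 0.65 ± 0.18 in UNX dogs (adjusted p = 0.0113) and 0.74 ± 0.18 in sham dogs (adjusted p = 0.00663). A dimmer probe set of SLC27A6 was called in UNX dogs at 0.40 (adjusted p = 0.0315) and not in sham dogs at 0.34 (adjusted p = 0.0766). SLC27A3, a related acyl-CoA synthetase with weak signal, differed by 0.12 ± 0.07 in UNX dogs and by -0.19 ± 0.07 in sham dogs (adjusted p = 0.0642), and neither passed the test. With the array number as a block, the sham value did (adjusted p = 0.0490), as it did without sham atrial array 4 or 5 (0.0448 to 0.0470). The dimmer probe set of SLC27A3 was not called, at -0.005 in UNX dogs (adjusted p = 0.978) and -0.10 in sham dogs (adjusted p = 0.514). SLC27A1, the transport protein studied mainly in muscle and fat, was dim and differed by -0.24 ± 0.10 in UNX and -0.20 ± 0.10 in sham dogs without a call. Without UNX atrial array 3 its UNX difference was -0.31 and was called (adjusted p = 0.0238). The other tested probe set of SLC27A1, also dim, had the opposite sign without a call, at 0.09 in UNX and 0.07 in sham dogs.

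Activation to acyl-CoA was represented by 4 synthetases, and 1 was called, beside 27.3% of all tested probe sets in UNX and 20.8% in sham dogs. This was ACSL1, the main long-chain synthetase of heart. UNX atria gave 11.52, 11.59, 11.67, 11.28 and 11.27, against 12.34, 12.21, 12.20, 12.53 and 12.18 in UNX ventricles. Sham atria gave 11.66, 11.54, 11.49, 11.66 and 11.50, against 12.25, 12.37, 12.30, 12.24 and 12.44 in sham ventricles. The chambers did not overlap in either set of dogs, and the sham arrays were closest together. ACSL1 was 1.77-fold lower in UNX atrium (-0.82 ± 0.09, adjusted p = 1.11e-06) and 1.68-fold lower in sham atrium (-0.75 ± 0.09, adjusted p = 4.31e-06). Its dimmer probe sets were called lower in UNX atrium (adjusted p = 0.043 and 0.016) and not in sham atrium (adjusted p = 0.142 and 0.113). ACSL3, which serves lipid droplet formation, and ACSL4, which prefers arachidonic acid, differed by 0.21 and 0.22 in UNX dogs, and by 0.09 and 0.14 in sham dogs. ACSL5 differed by -0.15 ± 0.22 in UNX and -0.34 ± 0.22 in sham dogs, and none of these 3 genes was called. A dimmer probe set of ACSL5 was called lower in UNX atrium at -0.27 (adjusted p = 0.0184), and its other probe sets were not called. ACSL4 and ACSL5 had weak signals, with group means of 3.66 to 3.90 and 3.52 to 4.01.

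Of 5 genes of the carnitine shuttle and of malonyl-CoA, 4 were called lower in UNX atrium and 3 in sham atrium. The shares of all tested probe sets called lower were 12.5% in UNX and 9.62% in sham atrium. MLYCD removes malonyl-CoA, the inhibitor of CPT1. Its signals were 9.34, 9.13, 9.03, 9.38 and 9.09 in UNX atria, against 10.30, 10.52, 10.47, 10.46 and 10.54 in UNX ventricles. They were 9.47, 9.19, 9.47, 9.45 and 9.0 in sham atria, against 10.39, 10.41, 10.46, 10.41 and 10.51 in sham ventricles. The sham ventricles lay within a narrow band, and every ventricular array lay above every atrial one. MLYCD was 2.4-fold lower in UNX atrium (-1.26 ± 0.09, adjusted p = 1.12e-08) and 2.17-fold lower in sham atrium (-1.12 ± 0.09, adjusted p = 6.46e-08), and both of its probe sets were called. ACACB, which makes malonyl-CoA at the mitochondrion, was not analysed here.

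The isoforms of CPT1, the regulated entry step, had chamber differences of opposite sign, of which that of CPT1B passed the test. CPT1B, the muscle isoform, had 9.72, 9.72, 9.57, 9.47 and 9.51 in UNX atria, against 9.89, 9.88, 9.89, 10.33 and 9.69 in UNX ventricles. Sham arrays had 9.78, 9.80, 9.74, 10.06 and 9.89 in atrium and 9.93, 10.21, 10.25, 10.20 and 10.27 in ventricle. The atrial arrays were mostly lower, with some overlap in both sets of dogs. CPT1B was called lower at -0.34 ± 0.10 in UNX dogs (adjusted p = 0.0174) and at -0.32 ± 0.10 in sham dogs (adjusted p = 0.0326). The sham call was lost without any one of sham atrial arrays 1, 2, 3 and 5 or sham ventricular arrays 2, 3, 4 and 5, at adjusted p = 0.0512 to 0.0766. CPT1A, the isoform of liver and many other tissues, had 9.03, 8.90, 8.66, 8.86 and 9.02 in UNX atria, against 8.58, 7.92, 9.06, 8.58 and 8.75 in UNX ventricles. In sham dogs it had 8.86, 8.89, 8.65, 9.09 and 8.99 in atrium and 8.43, 8.32, 9.25, 8.44 and 8.79 in ventricle. The ventricular arrays spread more widely than the atrial ones and overlapped them. CPT1A differed by 0.32 ± 0.18 in UNX dogs (adjusted p = 0.212) and by 0.25 ± 0.18 in sham dogs (adjusted p = 0.372), so no difference was detected, with intervals of -0.06 to 0.70 in UNX and -0.13 to 0.63 in sham dogs. Whether the isoforms differ from each other in their chamber difference was not tested.

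CPT2, which reforms acyl-CoA inside the mitochondrion, was lower in atrium at -0.36 ± 0.10 in UNX dogs (adjusted p = 0.0102) and at -0.39 ± 0.10 in sham dogs (adjusted p = 0.00845). Its dimmer probe sets were called lower in UNX atrium and not in sham atrium (adjusted p = 0.0525 and 0.221). CRAT, which buffers acetyl-CoA as acetylcarnitine, had a weak probe set with 4.64, 4.32, 4.80, 3.72 and 4.26 in UNX atria, against 4.89, 5.44, 5.64, 5.57 and 4.58 in UNX ventricles. Sham atria had 4.09, 3.46, 4.05, 4.37 and 3.78, against 4.94, 5.10, 3.80, 4.38 and 4.68 in sham ventricles. The chambers overlapped in both sets of dogs, and sham ventricular array 3 was the lowest ventricular array. CRAT was called lower in UNX atrium (-0.88 ± 0.26, adjusted p = 0.0169), a call lost without UNX atrial array 4 (-0.72, adjusted p = 0.0516). The sham difference of -0.63 ± 0.26 did not pass (adjusted p = 0.0958), and without sham ventricular array 3 it was -0.83 and passed (adjusted p = 0.0242).

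**Figure D2:**
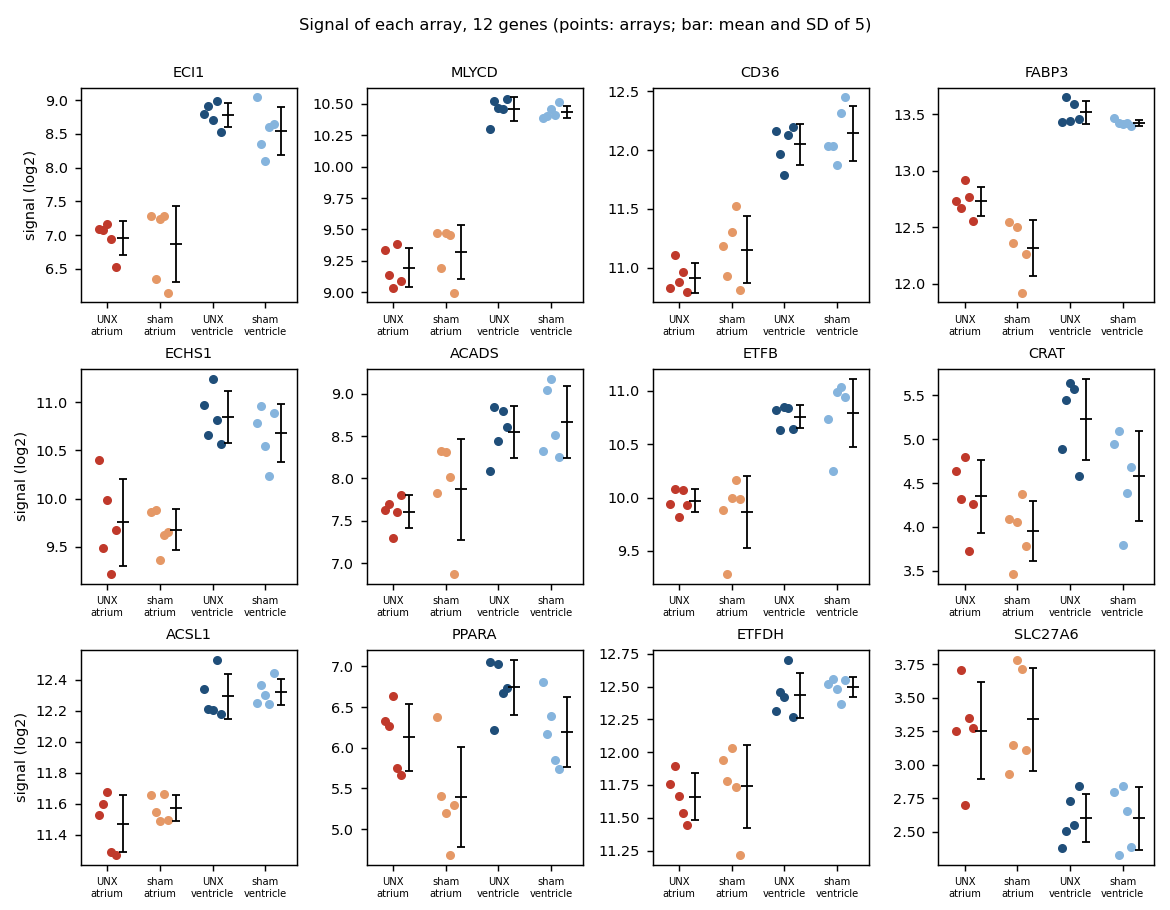
Signal (log2, y axis) of each array for the 12 called genes with the largest chamber differences, in UNX atrium, sham atrium, UNX ventricle and sham ventricle. Points are arrays and bars give the mean and SD of 5. Atrial points lie below all ventricular points of the same operation for ECI1, MLYCD, CD36, FABP3, ECHS1, ETFB, ACSL1 and ETFDH, and overlap them for CRAT and PPARA.

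Among 5 acyl-CoA dehydrogenases, those for very long (ACADVL), medium (ACADM) and short (ACADS) chains were called lower in atrium in both sets of dogs. Of all 30047 tested probe sets, 2228 were called lower in both. ACADS read 7.63, 7.70, 7.29, 7.60 and 7.80 in UNX atria, against 8.08, 8.84, 8.44, 8.79 and 8.61 in UNX ventricles. It read 7.83, 8.33, 8.31, 8.02 and 6.87 in sham atria, against 8.33, 9.05, 9.18, 8.51 and 8.26 in sham ventricles. The UNX chambers were separate, and the sham atria ranged more widely, with array 5 the lowest of all and arrays 2 and 3 within the ventricular range. ACADS was 1.93-fold lower in UNX atrium (-0.95 ± 0.24, adjusted p = 0.00661) and 1.73-fold lower in sham atrium (-0.79 ± 0.24, adjusted p = 0.0250). Its sham call was lost without sham atrial array 5 or without sham ventricular array 2 or 3, at adjusted p = 0.0629 to 0.0679. A dimmer probe set of ACADS was not called in sham dogs (-0.47, adjusted p = 0.421), and another was. ACADM differed by -0.48 ± 0.09 in UNX dogs (adjusted p = 0.000739) and by -0.59 ± 0.09 in sham dogs (adjusted p = 0.000143), and all 3 of its probe sets were called lower. ACADVL differed by -0.53 ± 0.10 in UNX dogs (adjusted p = 0.000711) and by -0.45 ± 0.10 in sham dogs (adjusted p = 0.00352). ACADL, the long-chain enzyme, and ACADSB, which acts in isoleucine breakdown, were not called. ACADL was at -0.06 ± 0.20 in UNX and 0.02 ± 0.20 in sham dogs, and ACADSB at -0.05 ± 0.07 in UNX and -0.09 ± 0.07 in sham dogs.

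ETFA and ETFB form the electron transfer flavoprotein, which takes electrons from the acyl-CoA dehydrogenases, and ETFDH hands them to ubiquinone. All 3 genes were called lower in atrium in both sets of dogs, beside 2228 of all 30047 tested probe sets. ETFDH had 11.76, 11.90, 11.67, 11.53 and 11.44 in UNX atria, against 12.31, 12.46, 12.42, 12.70 and 12.27 in UNX ventricles. It had 11.94, 11.78, 12.03, 11.73 and 11.22 in sham atria, against 12.52, 12.56, 12.48, 12.37 and 12.55 in sham ventricles. No atrial array reached the ventricular range, and sham atrial array 5 was the lowest. ETFDH was lower at -0.77 ± 0.13 in UNX dogs (adjusted p = 0.000153) and at -0.75 ± 0.13 in sham dogs (adjusted p = 0.000267), with all 4 of its probe sets called. ETFB read 9.94, 10.08, 9.82, 10.08 and 9.93 in UNX atria, against 10.83, 10.64, 10.85, 10.84 and 10.65 in UNX ventricles. In sham dogs it read 9.88, 9.28, 10.00, 10.17 and 9.99 in atrium and 10.74, 10.25, 10.99, 11.04 and 10.95 in ventricle. The chambers were separate, and array 2 was the lowest of its group in both sham atrium and sham ventricle. ETFB was 1.73-fold lower in UNX atrium (-0.79 ± 0.15, adjusted p = 0.000609) and 1.91-fold lower in sham atrium (-0.93 ± 0.15, adjusted p = 0.000182). ETFA had the smallest difference of the 3, -0.23 ± 0.07 in UNX dogs (adjusted p = 0.0238) and -0.25 ± 0.07 in sham dogs (adjusted p = 0.0167). The ETFA call in UNX dogs was lost without UNX atrial array 5 or UNX ventricular array 2 (adjusted p = 0.0504 to 0.0544). A weak probe set of ETFA had the opposite sign, and the mean of its 4 probe sets was not called (-0.03 in UNX and -0.13 in sham dogs).

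Of 10 genes for the later steps of the spiral, 5 were called lower in atrium in both sets of dogs, namely ECI1, ECHS1, HADH, ACAT1 and ACAA2. Of all 30047 tested probe sets, 2228 were called lower in both. ECI1, the isomerase that lets unsaturated fatty acids enter the spiral, had the largest difference of the 37 genes. Its signals were 7.09, 7.07, 7.17, 6.93 and 6.52 in UNX atria, against 8.79, 8.91, 8.71, 8.99 and 8.53 in UNX ventricles. They were 7.29, 6.35, 7.24, 7.28 and 6.15 in sham atria, against 9.04, 8.35, 8.09, 8.60 and 8.64 in sham ventricles. The lowest atrial values came from sham arrays 2 and 5 and from UNX array 5, and the chambers lay well apart. ECI1 was 3.55-fold lower in UNX atrium (-1.83 ± 0.22, adjusted p = 6.01e-06) and 3.21-fold lower in sham atrium (-1.68 ± 0.22, adjusted p = 2.04e-05), and both of its probe sets were called. ECHS1, the short-chain hydratase, had 10.40, 9.49, 9.98, 9.22 and 9.68 in UNX atria, against 10.97, 10.66, 11.24, 10.81 and 10.56 in UNX ventricles. Sham atria had 9.86, 9.88, 9.36, 9.62 and 9.66, against 10.78, 10.96, 10.54, 10.23 and 10.89 in sham ventricles. The UNX atria were the most spread, with array 1 near the range of the UNX ventricles but below it. ECHS1 was lower at -1.10 ± 0.19 in UNX dogs (adjusted p = 0.000298) and at -1.0 ± 0.19 in sham dogs (adjusted p = 0.000922).

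The other called genes of the spiral had smaller differences. HADH, the hydroxyacyl-CoA dehydrogenase for shorter chains, was lower at -0.48 ± 0.09 in UNX dogs (adjusted p = 0.000368) and at -0.39 ± 0.09 in sham dogs (adjusted p = 0.00322). Its other probe set was not called, at -0.62 in UNX dogs (adjusted p = 0.063) and -0.50 in sham dogs (adjusted p = 0.156). ACAT1, a thiolase of ketone and isoleucine metabolism, was lower at -0.56 ± 0.10 in UNX dogs (adjusted p = 0.000271) and at -0.51 ± 0.10 in sham dogs (adjusted p = 0.000967). ACAA2, the mitochondrial thiolase of beta oxidation, was lower at -0.23 ± 0.07 in UNX dogs (adjusted p = 0.0152) and at -0.22 ± 0.07 in sham dogs (adjusted p = 0.0275). Its other probe set was not called, at -0.16 in UNX dogs (adjusted p = 0.116) and -0.12 in sham dogs (adjusted p = 0.254). The sham call of ACAA2 was lost without sham atrial array 2, 3 or 5 or sham ventricular array 3 or 5 (adjusted p = 0.0544 to 0.0804). HADHA and HADHB, the subunits of the trifunctional protein that carries out these steps for long chains, were not called. HADHA differed by -0.15 ± 0.14 in UNX and -0.21 ± 0.14 in sham dogs, and HADHB by 0.00 ± 0.11 in UNX and -0.01 ± 0.11 in sham dogs. The interval of HADHB was -0.22 to 0.23 in UNX and -0.23 to 0.21 in sham dogs, which leaves out differences of the size seen for CD36 or ECI1. ECI2, an isomerase also found in peroxisomes, differed by 0.02 ± 0.09 in UNX and -0.01 ± 0.09 in sham dogs, and ACAA1, the peroxisomal thiolase, by 0.29 ± 0.19 in UNX and 0.27 ± 0.19 in sham dogs, without a call. Between sham arrays of equal number, which were taken as pairs, ACAA1 was higher in atrium in 5 of 5 (0.12 to 0.40), PPARGC1A lower in 5 of 5 (-0.32 to -0.02) and SLC27A3 lower in 5 of 5 (-0.37 to -0.04). These uncalled genes are named because all 5 differences shared a sign, and the share of all probe sets that do so was not counted. With the array number as a block, SLC27A3 was called in sham dogs (adjusted p = 0.049) and ACAA1 and PPARGC1A were not. HSD17B10, a mitochondrial dehydrogenase of isoleucine breakdown that is also a subunit of mitochondrial RNase P, was higher in UNX atrium by 0.23 ± 0.06 (adjusted p = 0.00948) and differed by 0.14 ± 0.06 in sham dogs (adjusted p = 0.103). Its other probe set was called higher at 0.36 in UNX (adjusted p = 0.00344) and 0.30 in sham dogs (adjusted p = 0.0167).

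Of the 5 genes of regulators and mitochondrial outlets, none was called in UNX dogs, and 1 was called lower and 1 higher in sham atrium. In either direction, 27.3% of all tested probe sets were called in UNX and 20.8% in sham dogs. PPARA, the nuclear receptor that activates many of these genes, had 6.33, 6.26, 6.63, 5.75 and 5.66 in UNX atria, against 7.06, 6.22, 7.03, 6.67 and 6.73 in UNX ventricles. It had 6.38, 5.41, 5.20, 4.68 and 5.29 in sham atria, against 6.81, 6.17, 6.39, 5.85 and 5.74 in sham ventricles. All 4 groups spread widely, the chambers overlapped, and sham atrial array 1 lay far above the other sham atria. PPARA was called lower in sham atrium (-0.80 ± 0.27, adjusted p = 0.0442), and the UNX difference of -0.61 ± 0.27 did not pass (adjusted p = 0.104). The sham call was lost in 11 of the 20 fits that left out 1 array, namely sham atrial arrays 2 to 5, sham ventricular arrays 1 to 3, UNX atrial arrays 1 and 2 and UNX ventricular arrays 4 and 5, at adjusted p = 0.0508 to 0.126. The other probe set of PPARA was called lower in both sets of dogs. PPARD, a related receptor, was dim, with group means of 1.75 to 2.00. It was called higher in sham atrium (0.25 ± 0.08, adjusted p = 0.0297) and was at 0.18 ± 0.08 in UNX dogs (adjusted p = 0.0905). The sham call ended without sham atrial array 3 or 5 or sham ventricular array 3, 4 or 5 (adjusted p = 0.0671 to 0.0781), and the UNX difference passed without UNX ventricular array 2 (0.23, adjusted p = 0.0431).

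The coactivator PPARGC1A differed by -0.12 ± 0.12 in UNX and -0.12 ± 0.12 in sham dogs and was not called. Both of its dimmer probe sets were lower in atrium, 1 called at -0.39 in UNX (adjusted p = 0.0338) and -0.42 in sham dogs (adjusted p = 0.0276), and the other at -1.06 in UNX dogs (adjusted p = 0.0399) and without a call at -0.26 in sham dogs. Without UNX atrial array 5 the UNX difference of its brightest probe set was -0.26 and was called (adjusted p = 0.0363). PDK4, the kinase that shuts pyruvate out of oxidation, differed by -0.20 ± 0.27 in UNX and -0.11 ± 0.27 in sham dogs. UCP2, an uncoupling protein family carrier, differed by 0.21 ± 0.20 in UNX and 0.00 ± 0.20 in sham dogs, and neither was called.

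Markers of some cell types moved with the chamber as well. For comparison, 12.5% of all tested probe sets were called lower and 14.7% higher in UNX atrium, and 9.62% lower and 11.2% higher in sham atrium. Of 17 cardiomyocyte markers, 10 were called lower in atrium and none higher, in UNX as in sham dogs, with medians of -0.34 in UNX and -0.30 in sham dogs. Their summed linear signal ran from 130748 to 138955 in UNX atria, from 133665 to 141775 in sham atria, from 152841 to 170857 in UNX ventricles and from 151955 to 170530 in sham ventricles. Fibroblast markers moved the other way, with 10 of 11 called higher in UNX atrium and 9 of 11 in sham atrium and medians of 1.58 in UNX and 1.35 in sham dogs. The summed signal of 12 fibroblast genes was 19238 to 29480 in UNX atria, 12701 to 26965 in sham atria, 8411 to 11118 in UNX ventricles and 8819 to 11413 in sham ventricles. Of 10 adipocyte markers tested, 4 were called higher and 1 lower in UNX atrium, and 5 higher and 1 lower in sham atrium. ADIPOQ, the fat cell hormone adiponectin, was called higher in UNX atrium (adjusted p = 0.00416) and in sham atrium (adjusted p = 0.00264), with means of 5.43 ± 1.41 in UNX and 6.04 ± 2.45 in sham atria, against 1.96 ± 0.11 in UNX and 2.21 ± 0.12 in sham ventricles (SD). The ventricular means lay near the low end of the scale, where the size of a difference cannot be read. The summed signal of 12 adipocyte genes, FABP4 included, was 2709 to 3139 in UNX atria, 1881 to 5159 in sham atria, 918 to 2085 in UNX ventricles and 929 to 1821 in sham ventricles. Endothelial markers were called lower for 2 of 13 in UNX and 3 of 13 in sham atrium, with sums of 2911 to 3489 in UNX atria, 3008 to 3255 in sham atria, 3862 to 4312 in UNX ventricles and 3658 to 4359 in sham ventricles. Macrophage and monocyte markers were called higher for 1 of 13 in UNX and for none in sham atrium, and none of 3 blood markers was called. The part of cell makeup in the differences of the fatty acid genes was not tested.

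Other genes around the pathway were taken from lists chosen by name. Of all tested probe sets, 12.5% were called lower and 14.7% higher in UNX atrium, and 9.62% lower and 11.2% higher in sham atrium. Of 29 further enzymes of fatty and branched acyl oxidation, 9 were called lower and 6 higher in UNX atrium, and 7 lower and 3 higher in sham atrium. ACOX2, a peroxisomal oxidase of branched chains, was lower at -2.73 ± 0.50 in UNX and -2.70 ± 0.50 in sham dogs. Of 23 genes of lipid supply and storage, 7 were lower and 1 higher in UNX atrium, and 4 lower and 3 higher in sham atrium. In either direction, 8 of 23 were called in UNX and 7 of 23 in sham dogs, beside 27.3% and 20.8% of all tested probe sets. AGPAT2, an acyltransferase of triglyceride synthesis, was lower at -2.43 ± 0.32 in UNX and -2.03 ± 0.32 in sham dogs, and PLIN2, a lipid droplet coat protein, at -1.28 ± 0.12 in UNX and -1.21 ± 0.12 in sham dogs. FABP4, the binding protein of fat cells and endothelium, was higher in sham atrium by 1.75 ± 0.45 and at 0.89 ± 0.45 in UNX dogs without a call, and DGAT2, which makes triglyceride, was higher in sham atrium by 1.56 ± 0.44 and at 1.18 ± 0.44 in UNX dogs without a call.

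Of 17 genes on the glucose and ketone side, 10 were lower in UNX atrium and 9 in sham atrium, and none was called higher. UCP3, an uncoupling protein family carrier of muscle, was lower at -4.01 ± 0.43 in UNX and -4.11 ± 0.43 in sham dogs. BDH1, the first enzyme of ketone body use, was lower at -3.48 ± 0.26 in UNX and -3.60 ± 0.26 in sham dogs. The glucose transporter SLC2A1 was lower at -1.63 ± 0.21 in UNX and -1.41 ± 0.21 in sham dogs, and PDK2, a pyruvate dehydrogenase kinase, was lower in UNX atrium at -1.08 ± 0.27 and at -0.62 ± 0.27 in sham dogs without a call. Of 22 other regulators, 5 were lower and 2 higher in UNX atrium, and 4 lower and 3 higher in sham atrium. That was 7 of 22 in each set of dogs, beside 27.3% of all tested probe sets in UNX and 20.8% in sham dogs. RXRG, a partner receptor of the PPARs, was lower at -2.51 ± 0.24 in UNX and -2.55 ± 0.24 in sham dogs. Subunits of AMP-activated protein kinase ran in both directions, with PRKAA2 at -1.22 ± 0.30 in UNX and -0.93 ± 0.30 in sham dogs and PRKAG2 at 1.71 ± 0.18 in UNX and 1.97 ± 0.18 in sham dogs, all called. ANGPTL4, a PPAR-induced inhibitor of lipoprotein lipase, was higher by 2.85 ± 0.40 in UNX and 2.42 ± 0.40 in sham dogs.

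**Figure D3:**
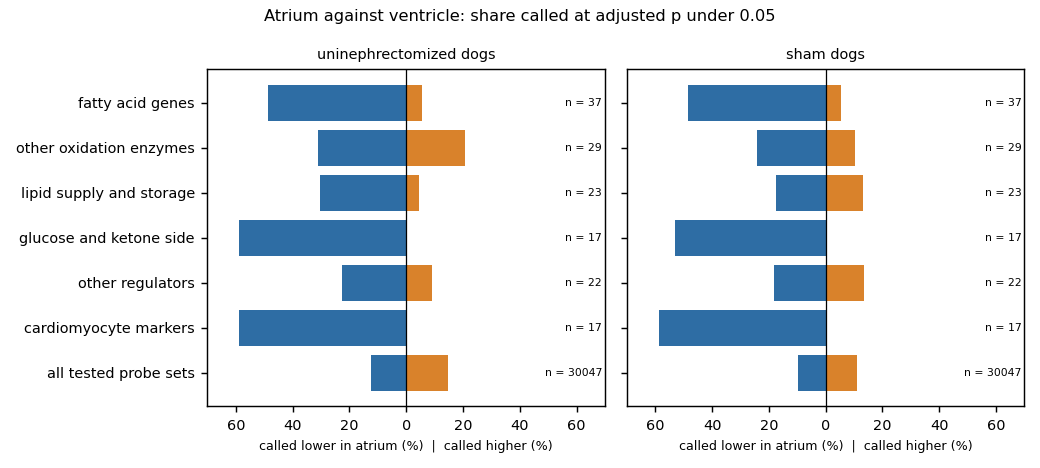
Share of each gene list called lower (left) or higher (right) in atrium than in ventricle, in percent, for UNX dogs and for sham dogs. The fatty acid genes, with 18 of 37 called lower in each, and the glucose and ketone genes and cardiomyocyte markers extend mainly to the left, beside all 30047 tested probe sets.

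Between UNX and sham dogs no fatty acid gene passed the test in either chamber. In the atrium, limma called 0 of the 37 genes and 0% of all tested probe sets, with 6 genes (and 6.69% of all probe sets) at an unadjusted p under 0.05. In the ventricle it called 0 genes and 0% of probe sets, with 3 genes (and 6.67% of all) at an unadjusted p under 0.05. The median difference over the 37 genes was -0.02 in the atrium and -0.03 in the ventricle. Estimates ran from -0.27 to 0.73 in the atrium and from -0.35 to 0.65 in the ventricle.

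**Figure D4:**
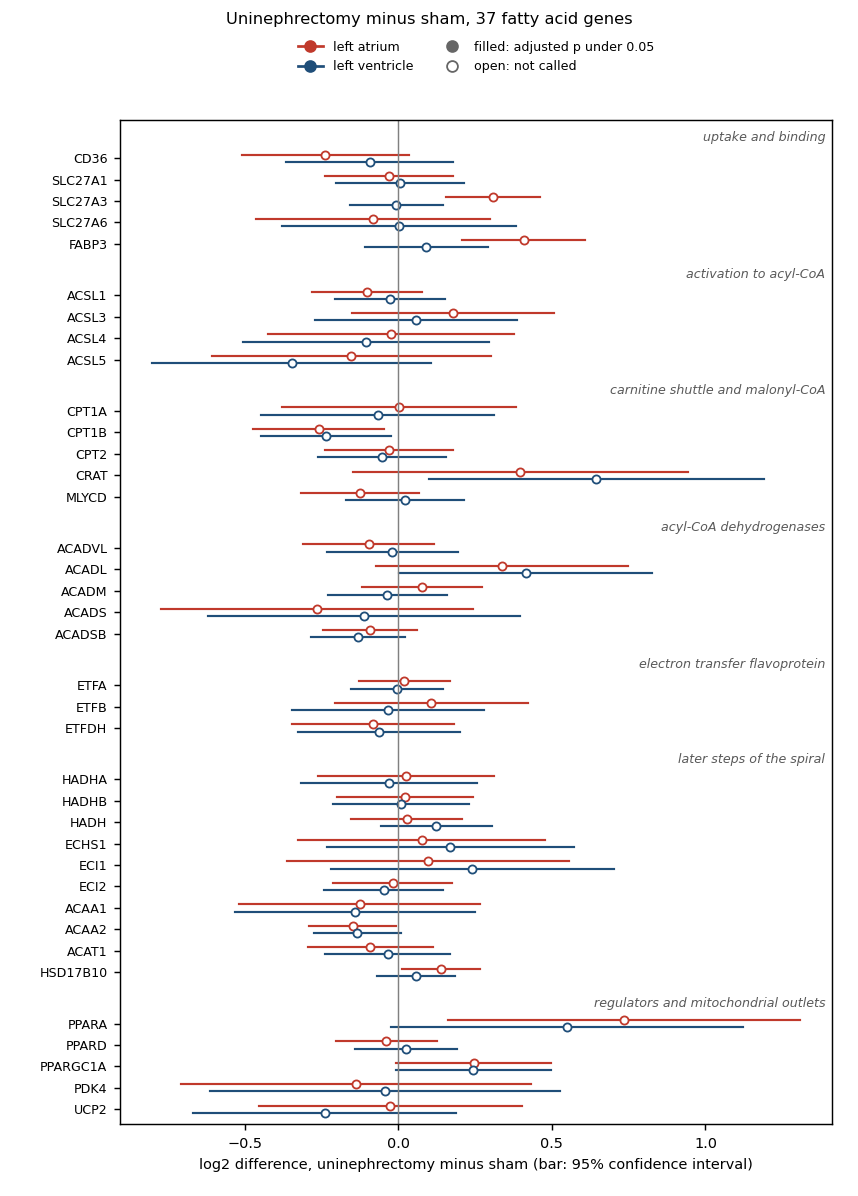
Log2 difference, UNX minus sham, of the 37 fatty acid genes in left atrium and left ventricle (x axis), with genes grouped by role down the page. Points are limma estimates from 5 arrays per group, bars are 95% confidence intervals, and all points are open because none was called. The largest estimates are PPARA in atrium (0.73) and CRAT in ventricle (0.65), with wide intervals.

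In the atrium, 2 genes had all UNX arrays above all sham arrays, FABP3 and SLC27A3, where 0.436% of all probe sets did, and CPT1B had all UNX arrays below, where 0.493% did. For FABP3 the gap was narrow: the lowest UNX and the highest sham value were both 12.55 to 2 decimals. The mean difference of FABP3 was 0.41 ± 0.10 (adjusted p = 0.631). SLC27A3 had 3.82, 3.96, 4.07, 4.05 and 4.07 in UNX atria, against 3.72, 3.59, 3.49, 3.81 and 3.82 in sham atria. In the ventricle it had 3.91, 3.95, 3.70, 3.90 and 3.91 in UNX dogs, against 3.86, 3.85, 3.86, 3.85 and 3.99 in sham dogs. The UNX atria were the highest group, just above the sham atria, and the ventricles overlapped. SLC27A3 differed by 0.31 ± 0.07 in the atrium (adjusted p = 0.631) and by -0.01 ± 0.07 in the ventricle. Its dimmer probe set differed by 0.09 in the atrium and by -0.01 in the ventricle. CPT1B differed by -0.26 ± 0.10 in the atrium (adjusted p = 0.683) and by -0.24 ± 0.10 in the ventricle (adjusted p = 0.719). In the ventricle, UNX array 4 was above every sham array and the other UNX arrays were below all of them.

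The remaining atrial differences with small p were PPARA, ACAA2 and HSD17B10. PPARA, for which sham atrial array 1 lay inside the UNX range, differed by 0.73 ± 0.27 in the atrium (adjusted p = 0.679) and by 0.55 ± 0.27 in the ventricle (adjusted p = 0.748). ACAA2 had 12.12, 11.97, 12.12, 12.00 and 12.18 in UNX atria, against 12.29, 12.20, 12.17, 12.28 and 12.17 in sham atria. Its ventricular values were 12.34, 12.33, 12.37, 12.27 and 12.24 in UNX dogs, against 12.43, 12.20, 12.57, 12.43 and 12.59 in sham dogs. UNX arrays tended to the low side in each chamber but overlapped the sham arrays. ACAA2 differed by -0.15 ± 0.07 in the atrium (adjusted p = 0.735) and -0.13 ± 0.07 in the ventricle (adjusted p = 0.748). HSD17B10 differed by 0.14 ± 0.06 in the atrium (adjusted p = 0.730). By p, CD36 came next among the negative differences, at -0.24 ± 0.13 (adjusted p = 0.775). Fibroblast markers had positive differences for 11 of 11 genes in UNX atrium, with a median of 0.35 and none called, beside a median of 0.00 for 17 cardiomyocyte markers, and their part in these values was not tested.

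In the ventricle no fatty acid gene had separate UNX and sham arrays, beside 0.396% of all probe sets above and 0.596% below. CRAT was the highest estimate, 0.65 ± 0.26 (adjusted p = 0.693), and overlapped between the operations. ACADL had 6.68, 7.19, 7.16, 6.89 and 6.52 in UNX ventricles, against 6.49, 6.86, 5.84, 6.74 and 6.45 in sham ventricles. In the atrium it had 6.98, 6.92, 6.71, 6.34 and 7.22 in UNX dogs, against 6.77, 6.50, 6.30, 6.79 and 6.13 in sham dogs. Sham ventricular array 3 was the lowest ACADL array, and the operations overlapped in both chambers. ACADL differed by 0.41 ± 0.20 in the ventricle (adjusted p = 0.746) and by 0.34 ± 0.20 in the atrium. PPARGC1A had 10.37, 10.33, 10.26, 10.44 and 10.01 in UNX ventricles, against 10.19, 10.09, 9.96, 9.91 and 10.06 in sham ventricles. The UNX atria had 10.10, 10.11, 10.05, 9.86 and 10.72 and the sham atria 9.87, 10.07, 9.89, 9.86 and 9.92. UNX atrial array 5 stood apart above all others, and the UNX ventricles were mostly above the sham ventricles. PPARGC1A differed by 0.24 ± 0.12 in the ventricle (adjusted p = 0.748) and by 0.25 ± 0.12 in the atrium (adjusted p = 0.756). ACADSB had 10.87, 11.02, 10.88, 10.90 and 11.04 in UNX ventricles, against 10.98, 11.02, 11.09, 11.16 and 11.12 in sham ventricles, overlapping groups that differed by -0.13 ± 0.07 (adjusted p = 0.757). In the atrium it had 10.86, 10.81, 10.88, 10.85 and 11.05 in UNX dogs and 10.89, 10.97, 11.11, 11.16 and 10.78 in sham dogs, a difference of -0.09 ± 0.07.

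RNA quality was followed through control probe sets, and its association with the signals was not tested. The 3' gap, the mean excess of 3' over middle or 5' control probe sets of actin, EF1A and GAPDH, was 1.10 ± 0.26 in UNX atria, 1.19 ± 0.19 in sham atria, 1.14 ± 0.15 in UNX ventricles and 1.42 ± 0.27 in sham ventricles (SD, n = 5 each). Such a gap is commonly used as a measure of RNA degradation. Sham ventricular array 3 had the largest gap, 1.83. With the gap as a covariate the ventricular difference was 0.20 ± 0.18 for CRAT, 0.20 ± 0.19 for ACADL and 0.27 ± 0.28 for PPARA. The atrial difference was 0.40 ± 0.10 for FABP3, 0.31 ± 0.07 for SLC27A3 and -0.27 ± 0.10 for CPT1B, and none of these was called. For the chambers, the covariate left 20 genes called in UNX and 18 in sham dogs, with CRAT then called in sham dogs (-1.0 ± 0.17, adjusted p = 0.000469). The sham calls of ACADS, ACAA2 and PPARD were lost, at adjusted p = 0.0796, 0.0588 and 0.0763.

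**Figure D5:**
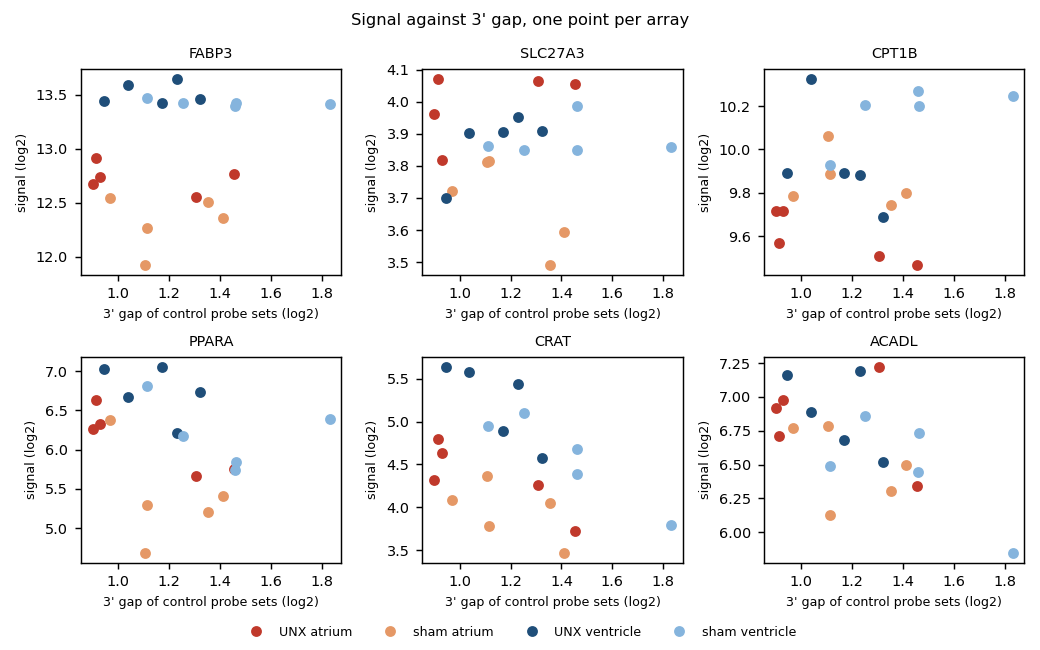
Signal (log2, y axis) of FABP3, SLC27A3, CPT1B, PPARA, CRAT and ACADL against the 3' gap of control probe sets (log2, x axis), 1 point per array, for UNX atrium, sham atrium, UNX ventricle and sham ventricle. In the CRAT and ACADL panels the sham ventricular array with a gap of 1.83 has the lowest ventricular signal, at 3.80 for CRAT and 5.84 for ACADL, and in the FABP3 panel the ventricular arrays stay above the atrial ones at every gap.

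The response to uninephrectomy was not shown to differ between the chambers. The test of the difference of the effects, atrium minus ventricle, called 0 of 37 genes and 0% of all probe sets in limma, with 2 genes (and 2.97% of all probe sets) at an unadjusted p under 0.05. These were SLC27A3, at 0.31 ± 0.10 (adjusted p = 1.0), and FABP3, at 0.32 ± 0.14 (adjusted p = 1.0). The dimmer probe set of SLC27A3 gave 0.10 and that of FABP3 gave 0.28, without a call. The same test compares the chamber difference between UNX and sham dogs: that of FABP3 was -0.79 in UNX dogs and -1.10 in sham dogs. In the 4 lists around the pathway, limma also called 0 genes for uninephrectomy in either chamber. At an unadjusted p under 0.05 were 3 of 91 genes in the atrium and 4 of 91 in the ventricle. The shares of all tested probe sets were 6.69% in the atrium and 6.67% in the ventricle.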

How the data were processed

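Affymetrix canine arrays were hybridised with labelled RNA made from 100 ng of total RNA, per the labels' protocols. The authors deposited 1 table of log2 values for 20 arrays and 43035 probe sets. How they corrected, normalized and summarized the signals is not stated in the sources used here, and no scanner files were used. The values, 0.435 to 15.0, were used as deposited. Gene symbols came from GEO's platform annotation, which gives 1 symbol for 29264 probe sets and several for 439, and does not list 13332.

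The 111 control probe sets were left out. Of the others, the dimmest 30% by mean signal (cut at log2 1.87) were set aside, so that 30047 entered the tests. A linear model per probe set held the 4 group means, fitted to the 20 arrays (16 residual degrees of freedom) with lmFit and eBayes of limma 3.58.1 under R 4.3.3, and tests were two-sided. Benjamini-Hochberg adjustment ran over all tested probe sets of a contrast, and a call needed an adjusted p under 0.05. The code was tested on simulated data.

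The genes and lists were chosen with earlier results of these data known. Values per array are given for FABP3, CPT1A and CPT1B, for the 12 called genes with the largest chamber differences of at least 0.5, and for the 3 genes with the smallest p in each direction of each UNX contrast. Of the lists around the pathway, called genes with a difference of at least 1 are named, at most 4 per list and direction. Other genes are given by role.

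Whether equal array numbers pair atrium and ventricle was checked from the deviations from the group means. Sham arrays of equal number correlated at 0.209 to 0.463 across probe sets, which was taken as pairing, and UNX arrays at -0.235 to 0.115, which was not. The labels do not state a pairing. Alternatives were other filters and scalings, array weights, eBayes with a trend, the array number as a block, the 3' gap as a covariate, the 2 groups alone, the mean of a gene's probe sets, and leaving out each array.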

Additional observations from a re-analysis of the deposited data

Results flagged for a closer look

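Within a group of 5 arrays, 14 of the 148 combinations of gene and group had 1 array apart from the other 4 by Dixon's 95% criterion, where chance gives about 7.4. In the UNX atrium, array 5 was high for ACADSB at 11.05 (others 10.81 to 10.88) and for PPARGC1A at 10.72 (others 9.86 to 10.11). In the sham atrium, array 5 was low for CPT2 at 9.65 (others 10.02 to 10.09) and for HADH at 10.94 (others 11.23 to 11.33), and array 2 was high for PPARGC1A at 10.07 (others 9.86 to 9.92). Deviations over the 37 genes were also taken from each gene's mean over all arrays of the chamber, UNX and sham together. Sham atrial array 5 had the lowest mean deviation, -0.12.

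In the UNX ventricle, SLC27A3 was low on array 3 at 3.70 (others 3.90 to 3.95) and ACSL5 was high on array 1 at 4.29 (others 3.41 to 3.66). ACADM was high on array 4 at 13.29 (others 13.12 to 13.17), ACAT1 was low on array 2 at 11.15 (others 11.38 to 11.45), and PDK4 was high on the same array at 12.91 (others 12.25 to 12.40). In the sham ventricle, CPT1B was low on array 1 at 9.93 (others 10.20 to 10.27) and SLC27A3 was high on array 5 at 3.99 (others 3.85 to 3.86). Array 3 of that group, which had the largest 3' gap, was high for ACSL5 at 4.89 (others 3.77 to 3.81) and low for HADH at 11.29 (others 11.66 to 11.71).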

How the results depend on the processing

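Over 31 alternative settings the counts of called genes moved little. Leaving out each array gave 19 to 21 called genes for the chambers in UNX dogs and 16 to 20 in sham dogs, and 0 for uninephrectomy in each chamber and for the difference of its effects. The 11 other settings gave 19 to 21 in UNX dogs and 15 to 21 in sham dogs, the lowest with the 2 sham groups alone, and 0 for uninephrectomy (the 2 groups alone cannot give the difference of effects). With the array number as a replicate block, 20 genes were called in UNX dogs and 21 in sham dogs, and 0 for uninephrectomy. With the block on sham arrays only, a setting chosen after seeing the data, the counts were 20 in UNX and 21 in sham dogs. The block added the call of SLC27A3 in sham dogs and changed no other call.

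Of the 37 genes, 14 were called in the same direction in both sets of dogs in every setting in which they were tested: CD36, FABP3, ACSL1, CPT2, MLYCD, ACADVL, ACADM, ETFB, ETFDH, HADH, ECHS1, ECI1 and ACAT1 lower, and SLC27A6 higher in atrium (30 settings, since the stricter filter removed it). In sham dogs PPARA was called in 17 settings, CPT1B in 21, ACAA2 in 22, PPARD in 23 of 30, ACADS in 26 and ETFA in 29, and the cause was not tested. Quantile normalization ended the sham calls of CPT1B (adjusted p = 0.0509) and ACAA2 (0.0598), array weights those of CPT1B (0.0563) and PPARA (0.0638), and no filter that of PPARA (0.0580). The fit of the 2 sham groups alone, with fewer arrays, ended those of ACADS, ETFA, ACAA2, PPARA and PPARD (0.0769 to 0.0972). The mean of a gene's probe sets ended the sham call of ACAA2 (0.0691) and added UNX calls of PPARA (0.00567) and PPARGC1A (0.0166) and a sham call of HSD17B10 (0.0171). Quantile normalization also added PPARA in UNX dogs (0.0446) and SLC27A3 and CRAT in sham dogs (0.0105 for SLC27A3, 0.0296 for CRAT). Precision was limited by 5 arrays a group (median 95% half-width 0.22), and PPARD, SLC27A1 and SLC27A6 lay near the low end of the scale.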
